A study of Mus musculus with 13 samples.

Results

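The conversion of mouse fibroblasts into chemically induced corneal endothelial cells was measured here over its whole course up to the P1 stage, by setting the libraries labelled P1 ciCEC (2 libraries) against those labelled D0 (3 libraries). These are 5 of the 13 libraries of the series, chosen by their labels and not by any measured value. P1 ciCEC are cells that fibroblasts gave rise to under small molecules. The labels do not expand P1, name the small molecules or give the days of treatment at P1. D0 are mouse embryonic fibroblasts (MEFs) from E13.5 embryos, taken before treatment. All 5 libraries came from C57BL/6 embryonic tissue, carried no named transgene or deletion, and were made from total RNA. The other 8 libraries hold cells at days 7 and 12 of treatment (D7, 3 libraries, and D12, 2 libraries), induced cells labelled P8 (2 libraries) and primary corneal endothelial cells (pCEC, 1 library). The labels do not state that libraries of a group came from separate cultures or embryos, so a p-value here speaks of the spread among libraries, and that spread may be technical.

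Fibroblasts are mesenchymal cells. They secrete collagens and other matrix, hold few cell-cell junctions, and express transcription factors such as Twist, Snail, Zeb and Prrx. The corneal endothelium is the cell sheet on the inner face of the cornea. It keeps the cornea clear by moving ions and water out of the stroma through ion transporters and carbonic anhydrases, and it rests on Descemet's membrane, whose typical collagen is type VIII. The outer face of the cornea, like the skin and the ducts of many glands, is covered by epithelium, which is marked by keratins, E-cadherin, desmosomes and claudins.

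Levels are given in FPKM (reads normalised to transcript length and to library depth), the unit in which the values fit the deposited table. The table's gene IDs stand beside the D0 values in their proper order, but the P1 values follow a line order of their own. Their genes were inferred from that order and from the requirement that a value be a whole number of reads at its transcript length. Of the P1 lines with reads, 25727 of 26261 were placed on a gene (98.0%), and they hold 99.2% and 98.5% of the reads, and 97.1% and 91.6% of the FPKM, of P1 replicates 1 and 2. When D0 was treated the same way with its IDs hidden and with reference transcript lengths alone, 99.93% of the genes placed were placed right, and 93.2% of genes at 1 FPKM or more were recovered. With the lengths used for P1 these shares were 99.96% and 99.57%, but 951 of those lengths had been solved on D0 itself, so that check is partly circular. A gene listed at 0 in both P1 libraries is the weakest kind of placement. The recovered totals were 22587267 and 9997865 reads in P1 and 19184645, 24030674 and 18320091 reads in D0.

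The P1 libraries stood far apart from each other. On the log2(FPKM + 1) scale, 3275 of 15864 genes (20.6%) differed by more than 2-fold between P1 replicates 1 and 2. Between any pair of D0 libraries, 172 to 207 genes (1.08% to 1.30%) did. Counts of genes more than 2-fold apart in the P1 pair use the same scale below. Some of the widest gaps were at pseudogenes and genes with near-identical copies, such as Gm29216 with 8.19 and 541 FPKM in P1 replicates 1 and 2, chosen after its values were seen. Because the P1 libraries differed so, the values of both are given throughout, and the counts of the main gene groups are followed by those without either of them. A fit with a single P1 library takes its spread from D0 alone. Its counts therefore do not measure the spread among P1 libraries.

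A gene was tested when at least 1 of the 5 libraries reached 1 FPKM, and it was called when limma gave a Benjamini-Hochberg adjusted p under 0.05 and a fold of at least 2 on log2(FPKM + 1). Of 15864 genes tested, 3918 were called (24.7%). Of these, 2092 were higher in P1 (13.2%) and 1826 were lower (11.5%). Counts of called genes in each gene group below are to be read beside these shares. The log2 fold change over all genes had a median of 0.06. Among the called genes, 480 higher and 221 lower ones had a fitted change of 10-fold or more, and 65 higher and 5 lower ones of 100-fold or more. All adjusted p-values below are those of limma over the 15864 genes, and each log2 fold change is given with its standard error. For each gene, limma took a single spread for both groups, pooled over the libraries. Array weights, which limma sets lower for libraries of wider spread, were 0.12 for P1 and 1.9 to 17.8 for D0. Where the P1 libraries differ, the standard errors and p-values given here are therefore likely too small.

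**Figure D1:**
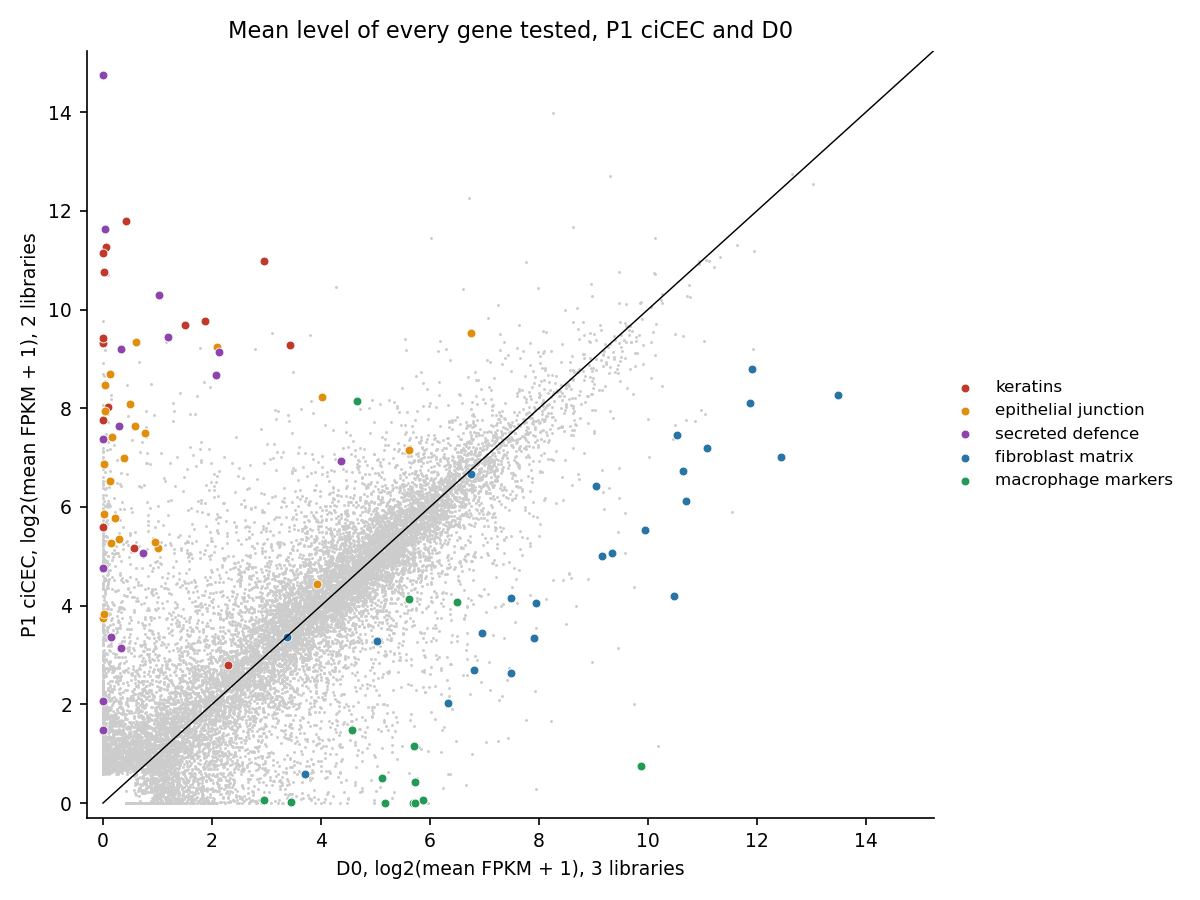
Mean level of each of the 15864 genes tested, as log2(mean FPKM + 1), in P1 ciCEC (y axis, 2 libraries) and in D0 (x axis, 3 libraries); the line marks equal levels. Most keratin, epithelial junction and secreted defence genes lie along the P1 axis near 0 in D0, and most fibroblast matrix and macrophage genes lie below the line.

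Keratins, E-cadherin and secreted defence genes were among the largest changes upward. By the rule for named genes, which takes the 10 largest called changes in each direction among genes with reads in both groups, the highest were Krt14, Lcn2, Krt13, Krt17, Psca, Arg1, Ly6d, Wfdc2, Cdh1 and Ehf. Krt14, a type I keratin of the basal layer of stratified epithelia, had 3533 and 3569 FPKM in the P1 libraries, against 0.296, 0.472 and 0.232 FPKM in D0. Both P1 libraries were high and alike, and every D0 library was under 1 FPKM (log2 fold change 11.38 ± 0.12, adjusted p = 1.54e-05). Krt14 (ENSMUSG00000045545) lies on the minus strand of chromosome 11, from 100203162 to 100207548 in GRCm38 with the GENCODE M21 annotation, which is used for all positions here. Krt5, the type II keratin that pairs with Krt14, had 2360.3 and 2192 FPKM in P1 and was listed at 0 in all D0 libraries (adjusted p = 1.54e-05). Krt5 (ENSMUSG00000061527) lies on the minus strand of chromosome 15, from 101707070 to 101712898.

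Of 16 keratin genes on the list, 15 were tested. In P1, 14 were called higher and 0 lower, against 13.2% of all genes called higher, and the count was 14 without P1 replicate 1 and 14 without P1 replicate 2. The median log2 fold change over the 15 was 7.75, beside 0.06 over all genes. Krt13, a keratin of the upper layers of moist stratified epithelia, had 1123 and 3807 FPKM in P1, against 0, 0.105 and 0 FPKM in D0 (log2 fold change 10.97 ± 0.52, adjusted p = 0.000174). Krt17, a keratin of activated and appendage epithelium, had 906 and 2547 FPKM in P1, against 0, 0 and 0.0352 FPKM in D0 (log2 fold change 10.55 ± 0.44, adjusted p = 0.000131). The keratins of simple epithelia rose as well. Krt8 had 319.8 and 1333 FPKM in P1, against 2.21, 1.87 and 1.45 FPKM in D0 (log2 fold change 7.85 ± 0.61, adjusted p = 0.00068). Its partner Krt18 had 221 and 1018 FPKM in P1, against 10.7, 9.47 and 9.12 FPKM in D0 (log2 fold change 5.47 ± 0.64, adjusted p = 0.00254).

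Keratins also separated the P1 libraries. Of the 15 tested, 11 were more than 2-fold apart, 10 of them higher in replicate 2, such as Krt4 with 131 FPKM in replicate 1 and 1155 in replicate 2. Krt15, a keratin of basal cells, went the other way with 396 and 126 FPKM. Krt14, Krt5 and Krt6b were among the 4 that lay within 2-fold. Krt20, a keratin of the gut and the urinary tract, was the one tested member that was not called (3.45 and 8.46 FPKM in P1, against 4.06, 3.8 and 3.77 FPKM in D0, adjusted p = 0.381). Krt12, the keratin of corneal epithelium, was not tested. It was listed at 0 and 0.054 FPKM in P1 and at 0 in all D0 libraries. Several keratins, Krt6a and Krt6b above all, have near-identical coding sequences, so the split of reads among such pairs is uncertain.

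Junction genes moved in the same direction. All 24 members of the epithelial junction list were tested, and 22 were called higher and 0 lower in P1, with a median log2 fold change of 6.01. The count was 23 without P1 replicate 1 and 22 without P1 replicate 2. Cdh1, or E-cadherin, the adhesion molecule that defines epithelial sheets, had 351 and 474 FPKM in P1, against 0.0743, 0.148 and 0.0389 FPKM in D0. The groups did not overlap (log2 fold change 8.56 ± 0.17, adjusted p = 4.14e-05). Cdh1 (ENSMUSG00000000303) lies on the plus strand of chromosome 8, from 106603351 to 106670246. Cdh2, or N-cadherin, the cadherin of mesenchymal and neural cells and also of corneal endothelium, had 2.31 and 2.45 FPKM in P1, against 28.9, 28.8 and 31.2 FPKM in D0 (log2 fold change -3.18 ± 0.12, adjusted p = 0.000103).

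Desmosomes, which anchor keratin filaments at the cell border, were represented by Dsp and Pkp1. The desmoplakin gene Dsp had 275 and 270.1 FPKM in P1, against 0.332, 0.496 and 0.412 FPKM in D0 (log2 fold change 7.60 ± 0.12, adjusted p = 4.14e-05). The plakophilin gene Pkp1 had 324 and 387 FPKM in P1, against 0.058, 0 and 0 FPKM in D0 (log2 fold change 8.44 ± 0.14, adjusted p = 4.14e-05). Dsp and Pkp1 were alike in both P1 libraries, while the desmosomal cadherin gene Dsc3 was not, with 87.7 and 26.7 FPKM. Among the claudins, which seal tight junctions, Cldn1 had 32.6 and 43.6 FPKM in P1. Cldn4 had 244 and 1058 FPKM in P1, against 0.545, 0.367 and 0.661 FPKM in D0 (log2 fold change 8.39 ± 0.62, adjusted p = 0.000589). Epcam, an adhesion molecule of simple and glandular epithelia, had 76.3 and 415 FPKM in P1, against 0.0256, 0.0408 and 0 FPKM in D0 (log2 fold change 7.46 ± 0.71, adjusted p = 0.00129). Cldn6, a claudin of embryonic epithelia, was not called. Its reads came nearly all from P1 replicate 2 (0.235 and 24.6 FPKM in P1, 0 in all D0 libraries, adjusted p = 0.184). Pkp2, a plakophilin of simple epithelia and heart, had 22.2 and 19.1 FPKM in P1, against 14.4, 14.5 and 13.6 FPKM in D0, and missed the fold limit.

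The promoters of junction genes are shown because this group rose nearly as a whole. The Snail and Zeb factors were lower in P1 (described below), and whether this bears on the junction genes was not tested. The E-box CACCTG is known as the element through which Snail and Zeb factors repress E-cadherin. A promoter here is the 300 bases from 250 before to 50 after a gene's start, taken from RefSeq on the build GRCm38.p6. The table held a promoter for 15 of the 24 junction genes, and 11 of these 15 (73.3%) contained CACCTG on either strand, which reads CAGGTG on the other strand. Cdh1 is not among the 15, and Cgn, Cldn1, Jup and Tjp1 held no match. Over all 27025 genes with a promoter in the table the share was 22.6%, and over the genes tested it was 21.1%. The share was 5 of 9 for keratins, 4 of 9 for epithelial transcription factors and 2 of 14 for fibroblast matrix genes. Of the junction genes, Crb3, which encodes a polarity protein of the apical membrane, held the most matches (4). The promoters shown were picked among those with 2 or more matches. In the sequences, written 5′ to 3′ on the strand of the gene, capitals mark each match, and a match is a description of the letters, not of a bound site.
Epcam (chr17:87635729-87636028, plus strand): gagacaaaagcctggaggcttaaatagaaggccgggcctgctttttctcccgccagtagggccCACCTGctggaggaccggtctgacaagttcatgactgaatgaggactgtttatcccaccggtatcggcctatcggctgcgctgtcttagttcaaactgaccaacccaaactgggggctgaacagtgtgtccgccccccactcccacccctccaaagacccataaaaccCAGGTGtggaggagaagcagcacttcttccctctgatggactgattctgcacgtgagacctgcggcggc
Cldn4 (chr5:134946885-134947184, minus strand): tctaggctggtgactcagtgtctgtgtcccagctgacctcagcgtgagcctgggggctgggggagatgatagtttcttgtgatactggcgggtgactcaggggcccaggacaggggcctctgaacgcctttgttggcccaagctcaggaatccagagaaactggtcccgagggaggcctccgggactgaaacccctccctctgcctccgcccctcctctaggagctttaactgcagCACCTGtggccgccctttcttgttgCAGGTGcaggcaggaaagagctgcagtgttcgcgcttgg
Crb3 (chr17:57061951-57062250, plus strand): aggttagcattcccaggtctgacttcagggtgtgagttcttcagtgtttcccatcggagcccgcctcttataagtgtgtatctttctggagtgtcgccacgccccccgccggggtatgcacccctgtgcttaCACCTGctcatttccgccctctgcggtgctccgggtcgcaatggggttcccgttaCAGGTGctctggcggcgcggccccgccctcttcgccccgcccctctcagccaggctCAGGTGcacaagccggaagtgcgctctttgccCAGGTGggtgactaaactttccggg
Ocln (chr13:100552449-100552748, minus strand): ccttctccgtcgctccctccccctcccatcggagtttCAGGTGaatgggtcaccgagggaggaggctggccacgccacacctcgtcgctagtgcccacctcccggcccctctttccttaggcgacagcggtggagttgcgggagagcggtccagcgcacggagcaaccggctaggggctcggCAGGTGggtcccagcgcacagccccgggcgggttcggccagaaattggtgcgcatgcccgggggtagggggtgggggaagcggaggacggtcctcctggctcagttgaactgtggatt
Epcam, Cldn4 and Ocln hold 2 matches each in these windows. Crb3 had 23.9 and 55.6 FPKM in P1, against 0.236, 0.235 and 0.185 FPKM in D0 (log2 fold change 4.95 ± 0.37, adjusted p = 0.00059). The occludin gene Ocln, which encodes a membrane protein of tight junctions, had 38.1 and 36.5 FPKM in P1, against 0.0893, 0.0891 and 0.14 FPKM in D0 (log2 fold change 5.11 ± 0.14, adjusted p = 5.99e-05). Both genes were called, and for neither did the P1 and D0 libraries overlap.

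**Figure D2:**
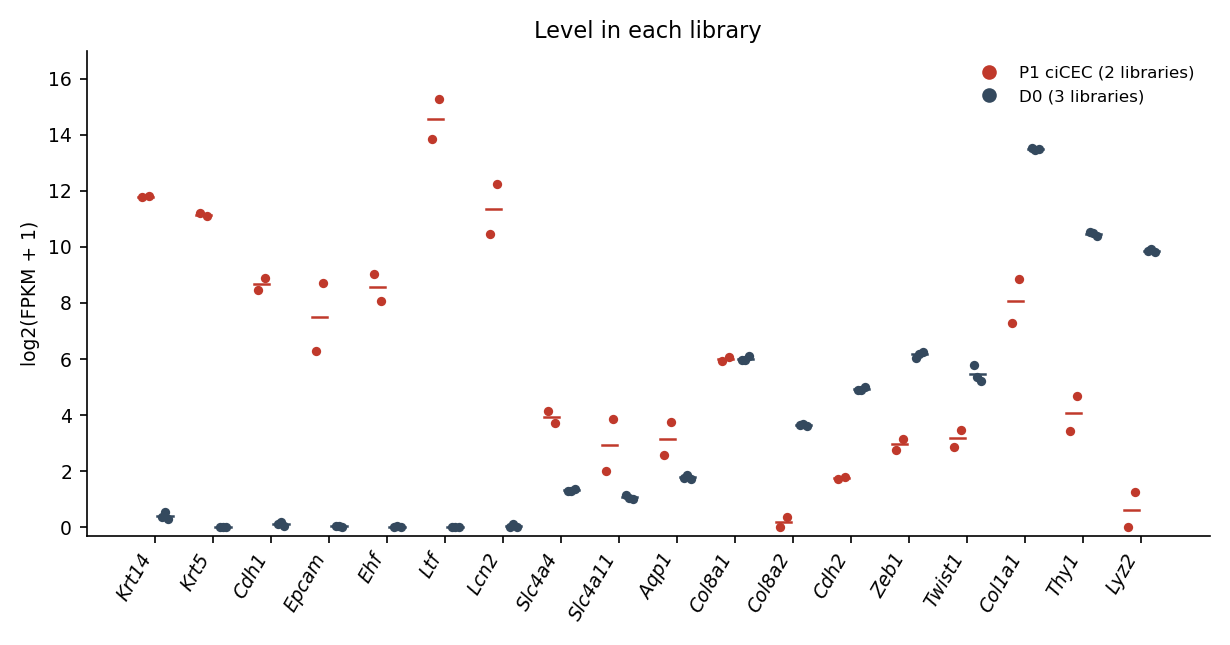
Level of 18 genes in each library as log2(FPKM + 1), with the P1 ciCEC libraries to the left and the D0 libraries to the right for each gene; bars mark group means on this scale. Epithelial and defence genes (Krt14 to Lcn2) are near 0 in D0, Col8a1 is alike in both groups, and the matrix gene Col1a1 and the macrophage gene Lyz2 are high in D0.

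Transcription factors and splicing regulators of epithelia rose too. All 18 members of the list were tested, and 15 were called higher and 0 lower in P1, with a median log2 fold change of 3.93. The count was 17 without P1 replicate 1 and 15 without P1 replicate 2. Ehf, an ETS factor of secretory and stratified epithelia, had 529 and 269.8 FPKM in P1, against 0, 0.0257 and 0 FPKM in D0 (log2 fold change 8.55 ± 0.30, adjusted p = 8.75e-05). Elf3, a related factor, had 105 and 182 FPKM in P1, against 0.0345, 0.193 and 0.0361 FPKM in D0, and its groups did not overlap (adjusted p = 0.000105).

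The splicing regulator Esrp1, which sets epithelial isoforms, had 51.6 and 61.6 FPKM in P1 and was listed at 0 in D0 (adjusted p = 5.21e-05). Trp63, the factor of basal epithelial cells, had 61.2 and 20.7 FPKM in P1, against 0.0292, 0.0583 and 0.0612 FPKM in D0 (log2 fold change 5.13 ± 0.46, adjusted p = 0.00108). It was thus present in both P1 libraries, at a higher level in replicate 1. Foxa1 and Sox2, factors of endodermal and glandular epithelium and of stem cells, were read almost only in replicate 2. Foxa1 had 0.909 and 57.7 FPKM in P1, against 0.173, 0.0923 and 0.0908 FPKM in D0, and Sox2 had 0 and 29.1 FPKM in P1, against 0.127, 0.303 and 0.292 FPKM in D0 (adjusted p = 0.137 for Foxa1 and 0.282 for Sox2). They and Gata3 were the members that were not called.

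The most abundant single transcript in P1 encodes a secreted defence protein. Ltf, lactoferrin, an iron-binding protein of tears, milk and neutrophil granules, had 14897 and 39986 FPKM in P1 and was listed at 0 in all D0 libraries (adjusted p = 6.3e-05). Ltf (ENSMUSG00000032496) lies on the plus strand of chromosome 9, from 111019271 to 111042767. Of the 18 secreted defence genes on the list 16 were tested, and 14 were called higher and 0 lower in P1, with a median log2 fold change of 6.56. The count was 16 without P1 replicate 1 and 14 without P1 replicate 2. Together the members held 3.02% and 7.07% of the FPKM placed on genes in the P1 libraries, against 0.00482% to 0.00508% in D0.

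Lcn2, a protein that binds bacterial iron carriers, had 1426 and 4892 FPKM in P1, against 0, 0.0899 and 0 FPKM in D0 (log2 fold change 11.33 ± 0.52, adjusted p = 0.000162). Arg1, arginase 1, had 654 and 1871 FPKM in P1, against 1.01, 0.619 and 1.5 FPKM in D0 (log2 fold change 9.10 ± 0.48, adjusted p = 0.000228). Wfdc2, a secreted antiprotease-like protein of airway and genital epithelium, had 388 and 791 FPKM in P1, against 0.0991, 0.158 and 0.519 FPKM in D0 (log2 fold change 8.80 ± 0.34, adjusted p = 0.000111). All of these were higher in P1 replicate 2 than in replicate 1. Complement C3 had 923 FPKM in replicate 1 and 204 in replicate 2, against 3.25, 2.87 and 4.03 FPKM in D0 (log2 fold change 6.64 ± 0.64, adjusted p = 0.00135). Outside the list, the surface proteins Psca and Ly6d, both of stratified or glandular epithelia, rose among the 10 highest. Psca had 1023 and 2280.1 FPKM in P1, against 0, 0.194 and 0 FPKM in D0 (log2 fold change 10.49 ± 0.36, adjusted p = 8.41e-05). Ly6d had 278 and 884 FPKM in P1, against 0, 0 and 0.0734 FPKM in D0 (log2 fold change 8.92 ± 0.49, adjusted p = 0.000261).

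Genes of fibroblast matrix and surface fell in P1. Of 25 fibroblast matrix and surface genes on the list, 24 were tested. In P1, 21 were called lower and 0 higher, against 11.5% of all genes called lower. The count was 21 without P1 replicate 1 and 24 without P1 replicate 2, and the median log2 fold change was -4.06. Col1a1, the alpha 1 chain of type I collagen and the most abundant transcript of D0, had 154 and 461 FPKM in P1, against 11834, 11122 and 11463 FPKM in D0. The highest P1 library was far under the lowest D0 library (log2 fold change -5.42 ± 0.47, adjusted p = 0.000969). Col1a1 (ENSMUSG00000001506) lies on the plus strand of chromosome 11, from 94936224 to 94953042. Col1a2, the alpha 2 chain, had 62.5 and 194 FPKM in P1, against 5655, 5498 and 5478 FPKM in D0 (log2 fold change -5.64 ± 0.47, adjusted p = 0.000904). Thy1, a surface antigen of fibroblasts, had 9.89 and 24.8 FPKM in P1, against 1484, 1437 and 1331 FPKM in D0 (log2 fold change -6.40 ± 0.37, adjusted p = 0.0003).

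Matrix transcripts were lower in P1 but not absent. Summed over the list, they held 0.228% and 0.372% of the FPKM placed on genes in P1, against 5.86% to 6.26% in D0. Postn, a matrix protein of injured and developing connective tissue, had 101 and 35.1 FPKM in P1, against 1643, 1674 and 1652 FPKM in D0 (log2 fold change -4.77 ± 0.44, adjusted p = 0.0012). The intermediate filament gene Vim had 140.2 and 209 FPKM in P1, against 1537, 1473 and 1407 FPKM in D0 (log2 fold change -3.10 ± 0.19, adjusted p = 0.000368). In the P1 pair, 15 list members were more than 2-fold higher in replicate 2, and Postn alone was more than 2-fold higher in replicate 1. Dcn, Lum and Mfap5, matrix genes of mature connective tissue, were not called. Dcn had 23.4 and 177 FPKM in P1, against 110.2, 113 and 99.2 FPKM in D0, so that the P1 libraries lay on both sides of D0 (adjusted p = 0.525). In bulk RNA, fewer cells of a kind and less RNA per cell cannot be told apart, which holds for every group of genes described here.

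Several of the largest decreases were of other secreted or imprinted genes. Ptn, or pleiotrophin, a heparin-binding growth factor, had 1.42 and 1.01 FPKM in P1, against 1197, 1191 and 1088 FPKM in D0 (log2 fold change -9.04 ± 0.13, adjusted p = 3.92e-05). Aspn, the small leucine-rich proteoglycan asporin, had 0.134 and 0.302 FPKM in P1, against 234, 256 and 246 FPKM in D0 (log2 fold change -7.66 ± 0.12, adjusted p = 4.14e-05). The imprinted genes H19, Peg3 and Grb10, which are active in embryonic growth, were all among the 10 largest decreases. H19 had 1.81 and 4.18 FPKM in P1, against 841, 875 and 844 FPKM in D0 (log2 fold change -7.81 ± 0.27, adjusted p = 8.57e-05). Peg3 had 1.19 and 3.13 FPKM in P1, against 261, 294 and 343 FPKM in D0 (log2 fold change -6.63 ± 0.30, adjusted p = 0.000158). Grb10 had 4.3 and 11.3 FPKM in P1, against 671, 693 and 724 FPKM in D0 (log2 fold change -6.43 ± 0.36, adjusted p = 0.000271). The other 5 of the 10 lowest were Thy1, Lyz2, which is described with the macrophage genes, the elastic fibre gene Mfap4 and the leucine-rich repeat genes Lrrc17 and Lrrc15. Mfap4 had 0.111 and 12.3 FPKM in P1, against 532, 502 and 467 FPKM in D0 (log2 fold change -7.03 ± 1.03, adjusted p = 0.00543).

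Transcription factors of mesenchyme fell with the matrix genes. Of 15 on the list 14 were tested, and 12 were called lower and 0 higher in P1, with a median log2 fold change of -2.29. It was 14 without P1 replicate 1, 12 without P1 replicate 2 and 8 without any 1 of the D0 libraries. Tbx15, a T-box factor of limb and trunk mesenchyme, had 0.292 and 0.725 FPKM in P1, against 77.9, 80.5 and 79.5 FPKM in D0 (log2 fold change -5.75 ± 0.16, adjusted p = 5.99e-05). Zeb1, a repressor of E-cadherin, had 5.72 and 7.93 FPKM in P1, against 65.4, 71.3 and 75.6 FPKM in D0 (log2 fold change -3.21 ± 0.16, adjusted p = 0.000212). Snai2 had 13.3 and 8.86 FPKM in P1, against 38.6, 39.6 and 40 FPKM in D0 (log2 fold change -1.77 ± 0.18, adjusted p = 0.00171). Both repressors were lower than in any D0 library, yet above 5 FPKM in each P1 library.

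The related Snai1 had 1.15 and 8.7 FPKM in P1, against 27.2, 28.4 and 25.3 FPKM in D0 (log2 fold change -2.61 ± 0.63, adjusted p = 0.0283). Zeb2 had 23.9 and 6.95 FPKM in P1, against 39.9, 43.3 and 46.9 FPKM in D0 (log2 fold change -1.65 ± 0.48, adjusted p = 0.0494). The Zeb2 call was lost in 9 of 17 alternatives, among them the fit without P1 replicate 2 (log2 fold change -0.83, adjusted p = 0.0117). Twist1, a factor of mesenchyme and neural crest, had 6.31 and 10.1 FPKM in P1, against 54.6, 40.6 and 35.8 FPKM in D0 (log2 fold change -2.29 ± 0.26, adjusted p = 0.00249). Twist2 and Osr1, which act in dermal and in trunk mesenchyme, were not called (adjusted p = 0.0586 and 0.0697).

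**Figure D3:**
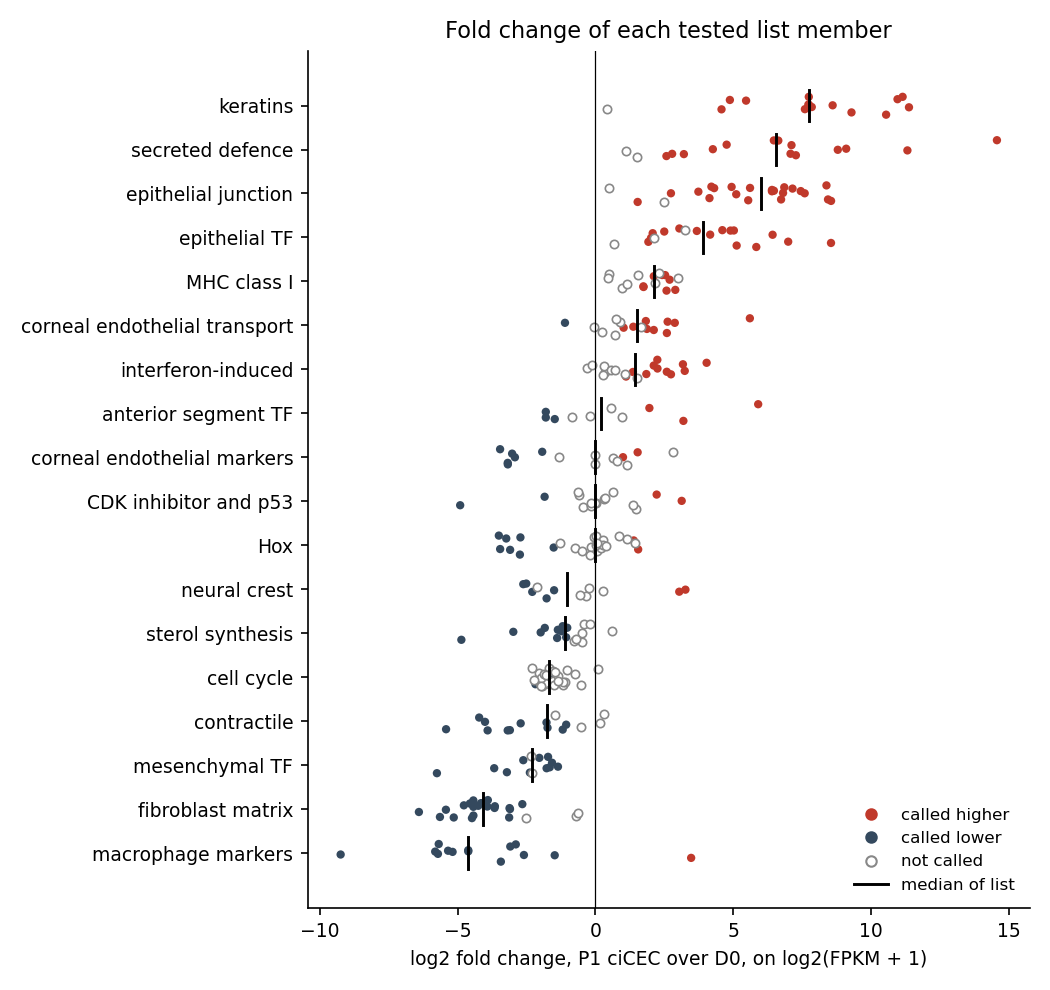
Log2 fold change of every tested member of 18 gene lists, P1 ciCEC over D0, on log2(FPKM + 1); red and dark blue points were called higher and lower, open points were not called, and black bars mark list medians. Keratins (median 7.75), secreted defence genes (6.56) and junction genes (6.01) stand at the top, and fibroblast matrix genes (-4.06) and macrophage markers (-4.61) at the bottom.

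The label of the P1 cells was set against genes of corneal endothelial transport. Of 18 genes 16 were tested, and 9 were called higher and 1 lower in P1, against 13.2% and 11.5% of all genes. The count of higher genes was 10 without P1 replicate 1 and 8 without P1 replicate 2, and the median log2 fold change was 1.53. Slc4a4, the sodium bicarbonate cotransporter, had 16.9 and 12.1 FPKM in P1, against 1.45, 1.46 and 1.56 FPKM in D0 (log2 fold change 2.62 ± 0.19, adjusted p = 0.000534). Car2, the cytosolic carbonic anhydrase, had 184 and 19 FPKM in P1, against 0.24, 0.115 and 0.402 FPKM in D0 (log2 fold change 5.61 ± 0.93, adjusted p = 0.00838). Car12, a membrane-bound carbonic anhydrase, had 19 and 22.7 FPKM in P1, against 2.02, 1.95 and 1.88 FPKM in D0 (log2 fold change 2.88 ± 0.15, adjusted p = 0.000216). Slc16a3, a lactate exporter, had 192 and 165 FPKM in P1, against 30.3, 27.4 and 28.4 FPKM in D0 (log2 fold change 2.60 ± 0.12, adjusted p = 0.00016). These transporters and enzymes are not particular to the corneal endothelium, since many epithelia use them.

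Calls were fragile for Slc4a11 and the water channel. Slc4a11, a transporter of the basolateral membrane that is mutated in human corneal dystrophies, had 3.05 and 13.4 FPKM in P1, against 1.21, 1.07 and 0.995 FPKM in D0 (log2 fold change 1.87 ± 0.54, adjusted p = 0.0485). The call was lost in 11 of 17 alternatives. The log2 fold change of Slc4a11 was 0.96 without P1 replicate 2, under the fold limit, and 2.79 without P1 replicate 1. Slc4a11 (ENSMUSG00000074796) lies on the minus strand of chromosome 2, from 130684113 to 130697519. Aqp1, a water channel, had 4.95 and 12.3 FPKM in P1, against 2.36, 2.6 and 2.33 FPKM in D0 (log2 fold change 1.38 ± 0.36, adjusted p = 0.0359). Its call was lost in 10 of 17 alternatives, and without P1 replicate 2 the log2 fold change of Aqp1 was 0.80. Slc16a7, a monocarboxylate transporter, was the member called lower (0.0692 and 0.156 FPKM in P1, against 1.21, 1.55 and 1.42 FPKM in D0).

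Matrix and surface markers of the corneal endothelium went both ways. All 15 were tested, and 2 were called higher and 6 lower in P1, against 13.2% and 11.5% of all genes. The share called higher was thus near that of all genes. The median log2 fold change was -0.02. In either direction 12 were called without P1 replicate 1 and 8 without P1 replicate 2. Col8a2, a type VIII collagen chain of Descemet's membrane, had 0 and 0.299 FPKM in P1, against 11.6, 11.7 and 11.2 FPKM in D0 (log2 fold change -3.46 ± 0.18, adjusted p = 0.000212). The gene (ENSMUSG00000056174) lies on the plus strand of chromosome 4, from 126286793 to 126314330. Col8a1, the partner chain, had 59.4 and 66.9 FPKM in P1, against 60.8, 61.7 and 68.3 FPKM in D0, and its groups overlapped (log2 fold change -0.01 ± 0.12, adjusted p = 0.95). Tjp1, the tight junction scaffold ZO-1, had 157 and 127 FPKM in P1, against 42.9, 49.4 and 52.1 FPKM in D0 (log2 fold change 1.54 ± 0.15, adjusted p = 0.00142). Ncam1, a neural adhesion molecule also found on corneal endothelium, had 4.98 and 5.8 FPKM in P1, against 59.3, 56.4 and 54.2 FPKM in D0 (log2 fold change -3.18 ± 0.12, adjusted p = 0.000103). The basement membrane collagen gene Col4a1 had 153 and 104 FPKM in P1, against 982, 1004 and 1108 FPKM in D0 (log2 fold change -3.02 ± 0.19, adjusted p = 0.000379). Of these markers Col8a2, Cdh2, Ncam1, Col4a1, Col4a2 and Gpc4 were thus lower in the P1 cells than in the fibroblasts, and Tjp1 and the adhesion molecule gene Alcam (40.9 and 55.1 FPKM in P1, against 22.7, 24.1 and 22.8 FPKM in D0, log2 fold change 1.00 ± 0.16, adjusted p = 0.00676) were higher.

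Transcription factors of the anterior eye went both ways too, with 3 called higher and 3 lower of 10 tested. Over all genes these shares were 13.2% and 11.5%. The remaining 4 of the 14 on the list did not reach 1 FPKM. Both fits with a single P1 library called 8 in either direction. Foxc1, a forkhead factor needed for the anterior segment, had 34.9 and 29.5 FPKM in P1, against 2.88, 2.39 and 2.57 FPKM in D0 (log2 fold change 3.20 ± 0.15, adjusted p = 0.000173). Eya2, a transcriptional cofactor of eye and muscle development, had 156 and 75.7 FPKM in P1, against 0.927, 0.841 and 0.706 FPKM in D0 (log2 fold change 5.91 ± 0.32, adjusted p = 0.000253). Lmx1b, a LIM homeobox factor of periocular mesenchyme, had 0 and 0.359 FPKM in P1, against 2.92, 3.1 and 3.13 FPKM in D0 (log2 fold change -1.80 ± 0.20, adjusted p = 0.00237). Pax6, the master factor of eye and corneal epithelium, stayed under 1 FPKM in all 5 libraries and was not tested (0.151 and 0.969 FPKM in P1, against 0.0594, 0.285 and 0.0622 FPKM in D0).

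Of 17 neural crest genes 12 were tested, and 2 were called higher and 5 lower in P1, against 13.2% and 11.5% of all genes. In either direction 7 were called without P1 replicate 1 and 8 without P1 replicate 2. Sox9 had 63.1 and 69.2 FPKM in P1, against 6.79, 7.43 and 7.17 FPKM in D0 (log2 fold change 3.05 ± 0.12, adjusted p = 0.000104). Tfap2a had 22 and 13.3 FPKM in P1, against 0.89, 0.894 and 0.852 FPKM in D0 (log2 fold change 3.27 ± 0.24, adjusted p = 0.000573). Both factors also act in surface epithelia. Zic1, an early neural border gene, had 0 and 0.375 FPKM in P1, against 5.79, 5.44 and 5.76 FPKM in D0 (log2 fold change -2.51 ± 0.20, adjusted p = 0.000771).

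The cell cycle list showed the split between the P1 libraries most plainly. All 29 genes were tested, and 2 were called lower and 0 higher, both under the 11.5% and 13.2% of all genes. The median log2 fold change was -1.67. In P1 replicate 1 the members summed to 549 FPKM and in replicate 2 to 111 FPKM, against 729 to 758 FPKM in the D0 libraries. On the log2(FPKM + 1) scale, 28 of the 29 genes were more than 2-fold higher in replicate 1 than in replicate 2. None was more than 2-fold higher in replicate 2 on that scale. Mki67, the proliferation antigen, had 18.6 and 0.903 FPKM in P1, against 21.8, 23 and 24.6 FPKM in D0, and Top2a, the mitotic topoisomerase, had 62.4 and 3.95 FPKM in P1, against 69.2, 69.2 and 73.7 FPKM in D0 (adjusted p = 0.171 for Mki67 and 0.196 for Top2a). Replicate 1 was near D0 and replicate 2 far under it. Without P1 replicate 1, 28 of the 29 were called lower, and without P1 replicate 2, 3 were. The 2 called genes were Cdk1, the mitotic kinase (15.9 and 3.19 FPKM in P1, against 37.4, 38.2 and 35.1 FPKM in D0, adjusted p = 0.0387), and E2f1, a factor of S phase entry (1.86 and 4.26 FPKM in P1, against 12.5, 10.9 and 10.5 FPKM in D0, adjusted p = 0.00994). Neither call held without any 1 of the D0 libraries.

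**Figure D4:**
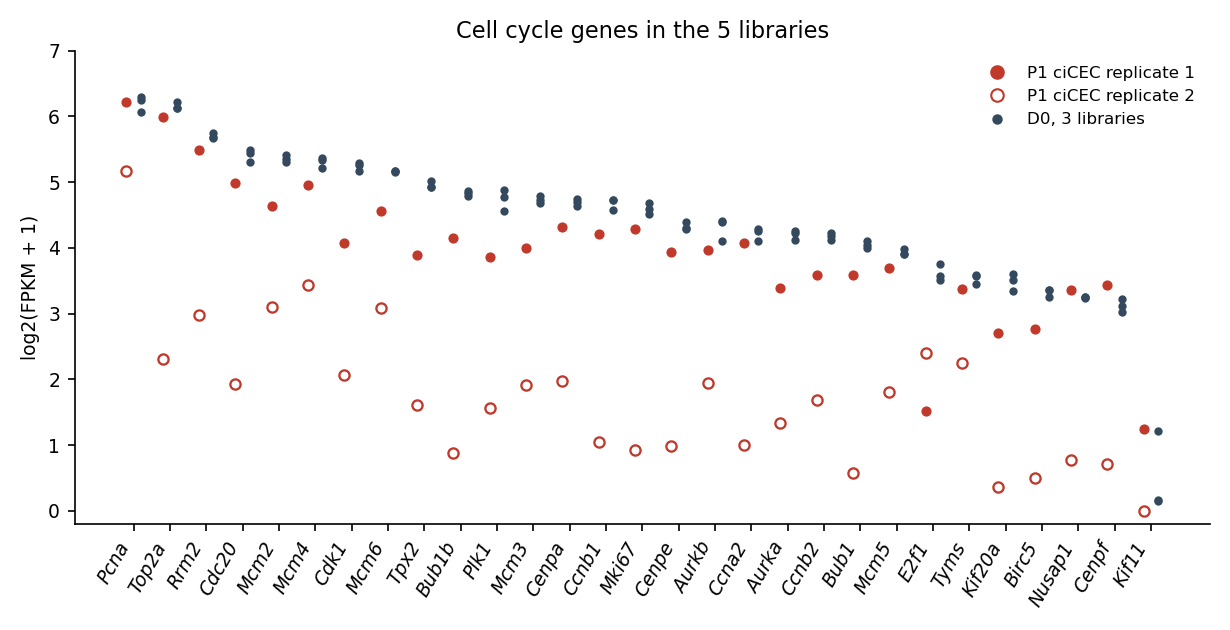
Level of the 29 cell cycle genes as log2(FPKM + 1), ordered by their D0 mean, with P1 ciCEC replicate 1 (filled) and replicate 2 (open) to the left of the 3 D0 libraries for each gene. In all but E2f1, replicate 2 lies under replicate 1, and for Mki67 the values are 18.6 FPKM in replicate 1, 0.903 FPKM in replicate 2 and 21.8 to 24.6 FPKM in D0.

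Among inhibitors of the cell cycle and targets of p53, all 16 were tested, and 2 were called higher and 2 lower in P1, a share near the 24.7% of all genes. The median log2 fold change was -0.01. In either direction 6 were called without P1 replicate 1 and 4 without P1 replicate 2. Cdkn2a, the locus of p16 and p19Arf, which restrain proliferating cells in culture, had 146 and 340.0 FPKM in P1, against 49.6, 47.5 and 43.7 FPKM in D0 (log2 fold change 2.23 ± 0.36, adjusted p = 0.00774). Cdkn1a, or p21, a p53 target, had 517 and 836 FPKM in P1, against 443, 427 and 409 FPKM in D0, and was not called (log2 fold change 0.62 ± 0.22, adjusted p = 0.0839). Gdf15, a stress-induced secreted factor, had 42.3 and 29.5 FPKM in P1, against 3.88, 2.99 and 2.65 FPKM in D0 (log2 fold change 3.13 ± 0.22, adjusted p = 0.000524). Cdkn1c, an imprinted inhibitor, had 1.19 and 0.982 FPKM in P1, against 65.2, 62 and 57 FPKM in D0 (log2 fold change -4.90 ± 0.13, adjusted p = 4.94e-05).

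Interferon-induced genes were higher in P1. All 20 were tested, and 11 were called higher and 0 lower, with a median log2 fold change of 1.44. The count was 9 without P1 replicate 1 and 16 without P1 replicate 2, and it dropped to 5 without D0 replicate 1, 6 without D0 replicate 2 and 5 without D0 replicate 3. Ifi44, a microtubule-associated antiviral protein, had 102 and 89.7 FPKM in P1, against 3.93, 5.11 and 5.71 FPKM in D0 (log2 fold change 4.04 ± 0.18, adjusted p = 0.000146). Irf7, the factor that amplifies interferon production, had 142 and 126 FPKM in P1, against 13.9, 13.4 and 12.5 FPKM in D0 (log2 fold change 3.25 ± 0.11, adjusted p = 8.83e-05). These were alike in both P1 libraries, but 13 members were more than 2-fold higher in replicate 1 and 1, the oligoadenylate synthetase-like gene Oasl1, was more than 2-fold higher in replicate 2 (12.9 and 51.1 FPKM in P1, against 1.76, 2.14 and 2.02 FPKM in D0). Isg15, a ubiquitin-like protein, was not called (129 and 102 FPKM in P1, against 100.4, 91.1 and 81.7 FPKM in D0, adjusted p = 0.159).

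Of the 16 genes of MHC class I presentation, all tested, 8 were called higher and 0 lower, with a median log2 fold change of 2.15. The count was 9 without P1 replicate 1 and 15 without P1 replicate 2, and 10 members were more than 2-fold higher in replicate 1. The immunoproteasome subunit gene Psmb9 had 19.1 and 9.39 FPKM in P1, against 1.13, 0.901 and 0.788 FPKM in D0 (log2 fold change 2.90 ± 0.32, adjusted p = 0.00204). The heavy chain gene H2-D1 had 1201 and 624 FPKM in P1, against 141, 129.9 and 128 FPKM in D0 (log2 fold change 2.70 ± 0.29, adjusted p = 0.00192). Heavy chain genes of this locus are near-identical copies of one another, so their reads may be split differently between libraries and their single values are uncertain.

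Contractile genes fell. Of the 16 on the list 15 were tested, 1 could not be placed in P1, and 11 were called lower and 0 higher, with a median log2 fold change of -1.77. The count was 11 without P1 replicate 1 and 10 without P1 replicate 2. Acta2, smooth muscle actin, the marker of myofibroblasts, had 330.2 and 165 FPKM in P1, against 2125, 2027 and 1894 FPKM in D0 (log2 fold change -3.10 ± 0.31, adjusted p = 0.00146). Actg2, the enteric smooth muscle actin, had 20.2 and 2.41 FPKM in P1, against 388, 358 and 341 FPKM in D0 (log2 fold change -5.42 ± 0.76, adjusted p = 0.0047). Cnn1, or calponin, had 6.94 and 5.65 FPKM in P1, against 143, 135 and 125 FPKM in D0 (log2 fold change -4.21 ± 0.13, adjusted p = 7.06e-05). Tpm1, a tropomyosin of all cells, had 1455 and 995 FPKM in P1, against 1812, 1751 and 1672 FPKM in D0, and was not called (adjusted p = 0.0887).

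Genes of sterol synthesis and uptake fell as well, with 11 called lower and 0 higher of 18 tested and a median log2 fold change of -1.09. The count was 9 without P1 replicate 1 and 11 without P1 replicate 2. Insig1, the sterol-regulated anchor of the SREBP pathway, had 8.05 and 16.5 FPKM in P1, against 98.4, 94.8 and 101 FPKM in D0 (log2 fold change -2.98 ± 0.29, adjusted p = 0.00139). Srebf2, the master factor of the pathway, had 127 and 155 FPKM in P1, against 160.3, 158 and 164 FPKM in D0, and was not called (log2 fold change -0.19 ± 0.12, adjusted p = 0.268). In the P1 pair 1 of the 18 members was more than 2-fold apart.

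Wnt targets gave no common direction, with 2 called higher and 2 lower of 11 tested, against 13.2% and 11.5% of all genes. In either direction 5 were called without P1 replicate 1, 6 without P1 replicate 2 and 2 without any 1 of the D0 libraries. Lgr5, a receptor of stem cells and of embryonic mesenchyme, had 0.423 and 0.0416 FPKM in P1, against 24, 26.3 and 27.3 FPKM in D0 (log2 fold change -4.46 ± 0.19, adjusted p = 0.000132). Rnf43, a ligase that removes Wnt receptors, had 13.9 and 10.1 FPKM in P1, against 0.535, 0.334 and 0.39 FPKM in D0 (log2 fold change 3.19 ± 0.20, adjusted p = 0.000374).

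Hox genes record the position of a cell along the body axis. Of 29 on the list 26 were tested, and 2 were called higher and 7 lower in P1, against 13.2% and 11.5% of all genes. The share called higher was under that of all genes. The median log2 fold change was -0.01. In either direction 12 were called without P1 replicate 1 and 13 without P1 replicate 2. The members called lower were Hoxa13 and the HoxC genes Hoxc4, Hoxc5, Hoxc6, Hoxc8, Hoxc9 and Hoxc10. Hoxc8 had 0.671 and 1.03 FPKM in P1, against 20.4, 20.3 and 18.8 FPKM in D0 (log2 fold change -3.50 ± 0.15, adjusted p = 0.000146). Hoxc6 had 7.09 and 3.18 FPKM in P1, against 62.2, 63.1 and 62.9 FPKM in D0 (log2 fold change -3.45 ± 0.29, adjusted p = 0.000892). Those called higher were Hoxb6 and Hoxb7. Hoxb6 had 69.7 and 34.2 FPKM in P1, against 15.7, 16.6 and 15.6 FPKM in D0 (log2 fold change 1.56 ± 0.31, adjusted p = 0.0145). In the P1 pair 11 Hox genes were more than 2-fold higher in replicate 1 and 0 in replicate 2.

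Markers of other cell types were read in the same libraries. All 14 macrophage markers were tested, and 13 were called lower and 1 higher in P1, with a median log2 fold change of -4.61, and both fits with a single P1 library also called 13 lower. The D0 libraries thus held transcripts of macrophage markers. Lyz2, lysozyme 2, had 0 and 1.37 FPKM in P1, against 924, 963 and 907 FPKM in D0 (log2 fold change -9.24 ± 0.37, adjusted p = 0.000115). The complement gene C1qa had 0 and 0.0962 FPKM in P1, against 62.4, 57 and 54.3 FPKM in D0 (log2 fold change -5.81 ± 0.13, adjusted p = 4.54e-05), and C1qb, C1qc and Tyrobp were listed at 0 in both P1 libraries. Summed over the list, macrophage markers held 0.0472% and 0.048% of the FPKM placed on genes in P1, against 0.236% to 0.244% in D0. The P1 sums were 301 and 340 FPKM, and most of each was Cd14, the member called higher. Cd14, a receptor for bacterial lipopolysaccharide, had 256 and 311 FPKM in P1, against 26.1, 24 and 23.2 FPKM in D0 (log2 fold change 3.48 ± 0.13, adjusted p = 0.000103). The part of macrophage RNA in the genes lower in P1 was not tested.

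Of the 10 markers of cornified keratinocytes 9 were tested, and 6 were called higher and 0 lower in P1. The count was 7 without P1 replicate 1 and 7 without P1 replicate 2. Sprr1a, a cornified envelope precursor, had 1105 and 188 FPKM in P1, against 1.42, 1.34 and 0.948 FPKM in D0 (log2 fold change 7.68 ± 0.74, adjusted p = 0.00137). Krt1 and Krt10, the keratins of suprabasal epidermis, were not called, with 1.81 and 0.15 FPKM for Krt1 and 1.77 and 3.09 FPKM for Krt10 in P1, against at most 0.0207 and 0.906 FPKM in D0. Markers of mesothelium gave 1 higher and 1 lower of 8 tested, a share near the 24.7% of all genes. The lower one was Lrrn4 (2.26 and 0 FPKM in P1, against 4.97, 5.18 and 5.6 FPKM in D0, adjusted p = 0.0459), a call lost in 9 of 17 alternatives, among them the fits without P1 replicate 2 and without any 1 of the D0 libraries. Msln, mesothelin, had 209 and 289.5 FPKM in P1, against 7.74, 8.25 and 7.88 FPKM in D0 (log2 fold change 4.79 ± 0.17, adjusted p = 8.63e-05). It was also high in pCEC, with 610.2 FPKM. Wt1 and Upk3b, other mesothelial genes, were not called.

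Vascular endothelial markers stayed low, with 6 of 10 under 1 FPKM everywhere, among them Pecam1, Cdh5 and Tek, and 1 called higher and 3 lower of 4 tested. The higher one was the adhesion gene Esam (3.58 and 3.18 FPKM in P1, against 0.414, 0.606 and 0.0723 FPKM in D0), and Kdr, Vwf and Egfl7 were lower. Of 11 neuronal and glial markers 5 were tested, and 2 were called lower, with Tubb3 at 2.31 and 1.36 FPKM in P1, against 26.2, 24.3 and 24.9 FPKM in D0 (log2 fold change -3.22 ± 0.18, adjusted p = 0.000289). Of 10 skeletal muscle markers 3 were tested and 2 were called lower. Of 7 melanocyte markers 3 were tested and Kit was called higher (34.2 and 42.1 FPKM in P1, against 0.242, 0.316 and 0.46 FPKM in D0), while the pigment enzyme gene Tyr was listed at 0 in all 5 libraries. None of 8 lymphoid markers reached 1 FPKM.

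The other stages of the series set these levels in context, with no test. Values of D7, D12, P8 and pCEC were placed on genes by the same inference as those of P1. The pCEC values rest on 1 library, whereas the check on D0 used 2 or 3 libraries. In pCEC, 249 genes with a D0 mean of 1 FPKM or more were not resolved, against 56 in P1. Krt14 was at most 0.113 FPKM in the D7 libraries and at 0 in D12, and it had 3994 FPKM in P8 replicate 1, 0 in P8 replicate 2 and 644 FPKM in pCEC. Cdh1 was likewise at most 0.742 FPKM in D7 and D12, and it had 358 and 0.0644 FPKM in the P8 libraries and 295 FPKM in pCEC. For both genes P1, P8 replicate 1 and pCEC were far above the other libraries, and P8 replicate 2 was at or near 0. Ltf had 15.6 to 18 FPKM in D7, 36.7 and 41.5 FPKM in D12, 56229 and 0.0664 FPKM in P8 and 16535 FPKM in pCEC.

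Slc4a11 had 8.5 to 10.3 FPKM in D7, 9.18 and 9.65 FPKM in D12, 2.23 and 5.08 FPKM in P8 and 6.63 FPKM in pCEC. Aqp1 was far above its P1 level at the intermediate stages, with 268 to 279 FPKM in D7 and 221 and 207 FPKM in D12, and it had 0.184 FPKM in pCEC. In pCEC, Col8a2 had 0.0619 FPKM, Cdh2 had 0.109 FPKM and Ncam1 had 0.974 FPKM. By this placement the single pCEC library was also below the D0 libraries in these 3 genes. Pax6 had 18.9 FPKM in pCEC, while it did not reach 1 FPKM in either P1 library. Twist1 was highest in D7 (879.8 to 934 FPKM) and D12 (1032 and 1136 FPKM), above the D0 libraries, so its lower level in P1 did not follow a steady decline across the stages. Col1a1 stood at 923 to 960.1 FPKM in D7 and at 575 and 490.1 FPKM in D12, between D0 and P1.

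**Figure D5:**
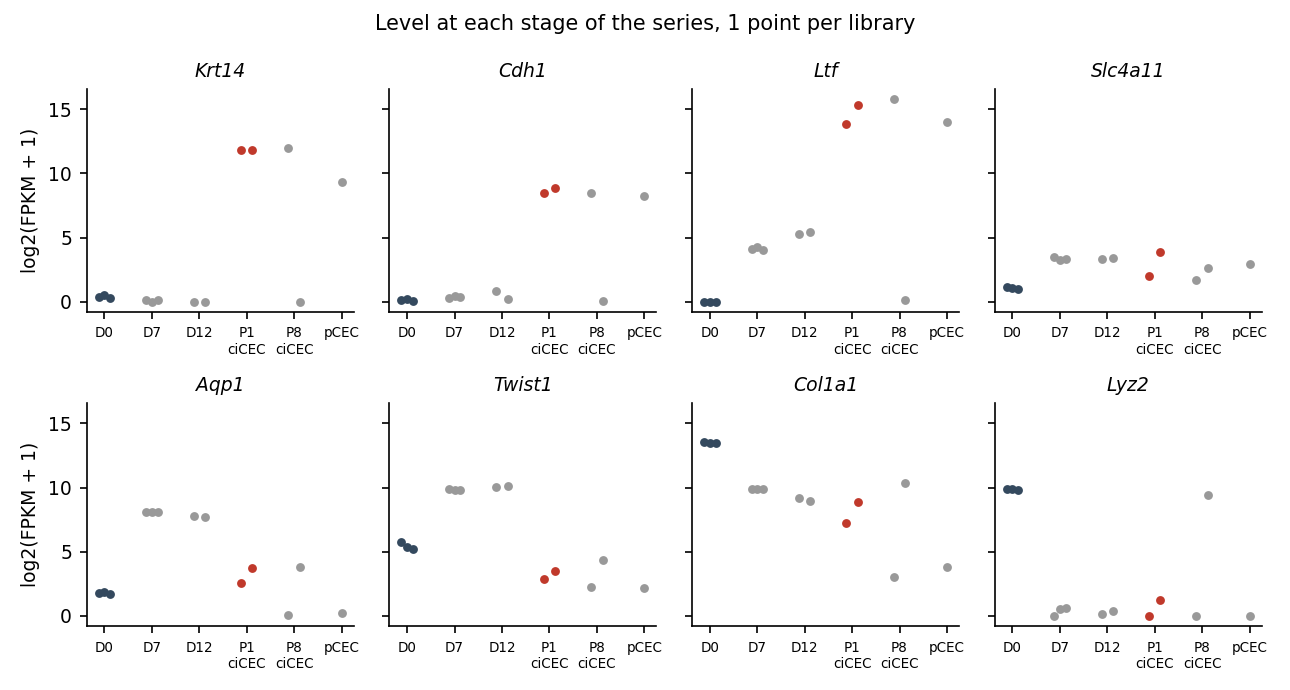
Level of 8 genes in each of the 13 libraries as log2(FPKM + 1), by stage, with D0 in dark blue, P1 ciCEC in red and other stages in grey. Krt14 and Cdh1 are high in P1, in P8 replicate 1 and in pCEC, Twist1 and Aqp1 peak in D7 and D12, and Lyz2 is high in D0 and P8 replicate 2.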

How the data were processed

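The authors deposited 1 table of normalised values for all 13 libraries, with no unit in its header. From the values, the deposited numbers were taken as FPKM made by the authors: 95.3% of D0 genes with reads gave whole reads (within 0.001) at the GENCODE M21 mean transcript length. The submitters' processing notes name Bowtie 0.12.2, mm8 and mm10 with the role of each not given in the sources used here. RNA was Trizol total RNA sequenced on TruSeq libraries, per the labels' protocols.

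Values of every group but D0 were placed on gene IDs from the line order that a hash table of those IDs gives. Whole reads at those lengths were also required, with 951 lengths solved on D0 and 256 on other groups (Python 3.11.15, numba 0.67.0). In P1, 66 genes at 1 FPKM or more in at least 1 D0 library were unresolved and not tested. Of these, 56 had a D0 mean at that level.

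log2(FPKM + 1) was fitted with limma 3.58.1 (R 4.3.3, trend) on the 5 libraries, with 3 residual degrees of freedom, for genes at 1 FPKM or more in at least 1 library. The fit was also run on simulated data for 15864 genes, with the same noise level for all genes of a group. The outcome of that run is not reported here. Calls needed a Benjamini-Hochberg adjusted p under 0.05 and 2-fold; with no adjustment, 7499 genes had p under 0.05. Where a gene was listed at 0 in a whole group no fold is given; list medians were the same with such genes set at a bound of 3 reads.

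The comparison and the gene lists were chosen with earlier results of these data known. Genes were named by rule: the 10 largest changes in each direction, up to 4 called members with the largest change per list, and a set named whatever its values. Members that were not called, that separated the P1 libraries, that have a printed promoter or that are counted one by one outside this rule, such as Foxa1, Sox2, Crb3, Ocln, Acta2, C3, Cd14 and Hoxb6, were chosen after their values were seen. A few of the genes so named are not reported here.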

Additional observations from a re-analysis of the deposited data

How the results depend on the processing

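The count of 3918 called genes changed with several choices. It was 2387 with a pseudocount of 5 (1353 higher and 1034 lower in P1) and 5900 with no fold limit (2774 of them lower). Leaving out 1 library gave 2975 to 5434 calls, 1570 to 2984 higher and 1405 to 2450 lower. A lone P1 library was then assumed to vary like D0, and the highest count was that without P1 replicate 1. Whether the replicate numbers pair the samples was not settled. Deviations of same-numbered libraries correlated at -0.12 and -0.012 over 2 pairs. With 2 P1 libraries these deviations mirror each other, so the correlations cannot decide it. A replicate block gave 2428 calls (1346 higher and 1082 lower), 0 cell cycle genes lower, 7 interferon-induced genes higher and 2 Wnt targets called.

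Among the lists, the fit on all 13 libraries called 7 mesenchymal factors and 10 cell cycle genes lower. Genes with reads in both groups left 9 keratins called higher, by construction. Anterior segment factors called numbered 2 with a pseudocount of 5 and 3 with a filter at 5 FPKM. Cell cycle genes called lower numbered 5 with a pseudocount of 5, 1 with no filter, 6 with median scaling and 8 with array weights. Other than by construction, the cause was not tested. Leaving out 1 library gave 0 to 28 cell cycle genes lower, 5 to 16 interferon-induced and 6 to 15 MHC class I genes higher, 8 to 14 mesenchymal factors lower, 6 to 10 transport genes higher, and 2 to 6 Wnt targets, 4 to 8 anterior segment factors, 6 to 12 corneal endothelial markers, 3 to 6 inhibitors and 7 to 13 Hox genes called. Of 108 named genes called, 80 were called under every alternative that tested them. Some of the 17 alternatives left genes out, and Krt5 and Ltf, for example, were tested in 16.

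The depth of P1 replicate 2, 9997865 reads, is the lowest of the 5, and low levels there rest on few reads. Genes listed at 0 in P1 are the weakest placements: in the check on D0, 144 genes at 1 FPKM or more were wrongly set to 0 with reference lengths alone, and 6 with the lengths used for P1, some of which were solved on D0.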

Other observations

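Among the most abundant transcripts of P1 after Ltf were 3 genes on no list, named here after their values were seen. Gsto1, a glutathione transferase of the omega class, had 9635 and 22651 FPKM in P1, against 326, 306 and 279.7 FPKM in D0. Anxa1, the annexin that restrains inflammation, had 5452 and 7873 FPKM in P1, against 649.8, 640.5 and 615 FPKM in D0. Ecm1, a secreted matrix glycoprotein of skin, had 2875 and 6967 FPKM in P1, against 110.2, 105 and 98.8 FPKM in D0. All 3 were called higher in P1, and for each P1 replicate 2 was the higher library.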
